A study of Homo sapiens with 4 samples.

Results

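Metallothioneins are small cytoplasmic proteins in which a large share of the residues are cysteines, and they bind zinc, copper and cadmium. The transcript levels of 6 metallothionein genes (MT2A, MT1X, MT1F, MT1E, MT1G and MT1M) were examined in 4 RNA sequencing libraries of PK-1, a human pancreatic ductal adenocarcinoma cell line. They were chosen by gene symbol and make up 6 of the 53826 entities listed for every library. The study examined SPRR1A, a small proline-rich protein of the cornified envelope of squamous epithelium, by overexpressing it in PK-1 in a stable and a transient model. In the stable model, cells carried a pMXs retroviral vector with FLAG-tagged SPRR1A or, as the control, with the red fluorescent protein DsRed. In the transient model, cells were transfected with a pCAG plasmid with FLAG-tagged SPRR1A or, as the control, with the green fluorescent protein GFP, and RNA was taken 48 h later. All 4 libraries therefore came from cells with an introduced expression vector, each condition is 1 library, and untreated PK-1 cells were not analysed here. With nothing to show how a condition varies on repetition, differences are given as sizes without a test, and are read against all other genes. In bulk RNA, fewer cells that express a gene and less RNA per cell cannot be told apart.

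Metallothionein genes are controlled largely at transcription. When free zinc rises, the zinc finger factor MTF1 binds metal response elements in their promoters, so the same genes answer zinc, cadmium and copper. Oxidative stress, glucocorticoids and interleukin 6 are further known inducers, and the proteins are known for buffering zinc and for protecting cells from cadmium. MT2A and the MT1 genes are close copies of each other in 1 cluster, which bears on how reads are assigned to them.

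The 6 genes lie on chromosome 16 within 75.6 kb, from 56608584 to 56684196 in GRCh38 (RefSeq annotation). MT2A comes first, at 56608584 to 56609497, followed by MT1E, MT1M and MT1F, the last at 56657959 to 56659303. MT1G, at 56666730 to 56668065, is read from the other strand, and MT1X closes the cluster at 56682470 to 56684196. Each coding sequence is spread over 3 exons. It is 186 bases long in 5 of the genes and 189 bases in MT1G. The coding sequences of the members that were measured above the floor are printed from GENCODE release 44, 5′ to 3′, to show how alike the members are, with capitals in MT1X and MT1F where the base differs from MT2A.
MT2A: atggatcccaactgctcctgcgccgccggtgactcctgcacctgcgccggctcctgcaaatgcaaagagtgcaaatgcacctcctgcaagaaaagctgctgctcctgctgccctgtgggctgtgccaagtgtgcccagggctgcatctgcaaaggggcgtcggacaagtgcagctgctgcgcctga
MT1X: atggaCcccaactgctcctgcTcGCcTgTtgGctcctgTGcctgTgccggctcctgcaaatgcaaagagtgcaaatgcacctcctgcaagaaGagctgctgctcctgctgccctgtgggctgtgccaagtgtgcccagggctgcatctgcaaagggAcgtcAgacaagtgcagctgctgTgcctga
MT1F: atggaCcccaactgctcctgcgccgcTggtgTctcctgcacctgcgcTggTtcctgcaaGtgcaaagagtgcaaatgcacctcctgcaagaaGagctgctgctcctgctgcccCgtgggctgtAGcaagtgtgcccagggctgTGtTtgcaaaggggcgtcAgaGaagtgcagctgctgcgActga

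MT1X differed from MT2A at 14 of 186 coding bases and MT1F at 16 of 186. Over the 15 pairs of members, the coding sequences were 88.7% to 93.7% identical. Whole mRNAs, which include the untranslated ends, were compared by a different measure, the share of windows particular to each. Of all 75-base windows of the MT2A, MT1F and MT1M mRNAs, 100% were found in no transcript of another gene among 252835 GENCODE transcripts. The share was 93.5% for MT1G and 63.9% for MT1X. For MT1E it was 99.2%, over a transcript of 704 bases that is not the canonical one and starts upstream of the RefSeq gene, while the other mRNAs are 398 to 425 bases long. MT1X was thus the member with the least sequence of its own, and its 75-base windows were shared with MT1G, the pseudogene MT1XP1 and 1 unnamed gene. With 50-base windows the share was 49.0% for MT1X, and it was between 80.1% for MT1G and 94.7% for MT1E in the others. The read length and the rule for reads that match several genes are not given in the sources used here, and how far reads from shared sequence enter the MT1X level was not tested.

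**Figure D1:**
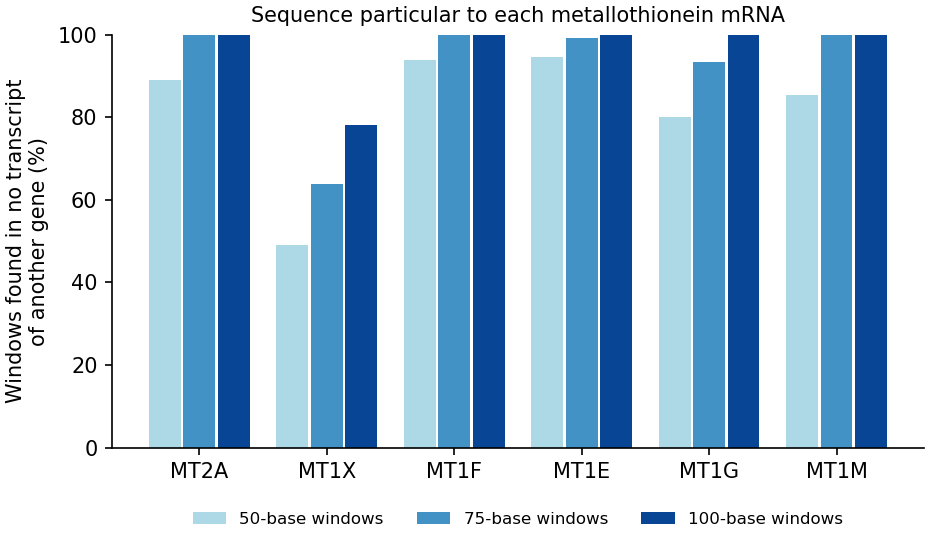
Sequence particular to each metallothionein mRNA. Bars give the percentage (y axis, from 0) of all 50-, 75- and 100-base windows of each mRNA (x axis) that occur in no GENCODE transcript of another gene; MT1X is lowest at each length, at 49.0%, 63.9% and 78.0%.

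The promoters of MT2A and MT1X, the 2 members in the RefSeq promoter table, are printed over the 250 bases before the start of transcription (GRCh38 patch 14, plus strand, chr16:56608334-56608583 and chr16:56682220-56682469), since both hold several copies of the core through which MTF1 acts. Capitals mark that core, searched on both strands in an A form (TGCACNC) and a G form (TGCGCNC), where N is any base.
MT2A: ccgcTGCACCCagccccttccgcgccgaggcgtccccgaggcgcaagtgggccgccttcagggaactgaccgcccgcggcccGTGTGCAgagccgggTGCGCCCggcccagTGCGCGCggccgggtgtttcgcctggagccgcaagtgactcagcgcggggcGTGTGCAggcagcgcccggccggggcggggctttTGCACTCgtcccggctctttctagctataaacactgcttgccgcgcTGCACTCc
MT1X: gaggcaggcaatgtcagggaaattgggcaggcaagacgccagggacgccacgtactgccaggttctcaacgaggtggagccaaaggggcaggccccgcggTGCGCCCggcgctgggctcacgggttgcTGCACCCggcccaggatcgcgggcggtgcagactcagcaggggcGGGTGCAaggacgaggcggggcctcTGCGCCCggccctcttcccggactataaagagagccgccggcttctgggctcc

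The MT2A promoter held 7 cores, 5 of the A form and 2 of the G form. Its A forms began at positions -246, -168, -88, -54 and -8, counted from the start. The MT1X promoter held 4 cores, 2 of each form. Among 27305 promoters of the same length, 24.7% held at least 1 core, 9.73% the A form and 16.9% the G form. At least as many cores as in MT2A were found in 9 promoters (0.0330%) and at least as many as in MT1X in 100 promoters (0.366%). The first count includes MT2A itself, and the second includes both MT2A and MT1X. Each of the 2 promoters also held 1 antioxidant response element core (TGACNNNGC, in 11.0% of all promoters) and 1 TATA box (TATAAA, in 11.1%), which began at position -29 in MT2A and -30 in MT1X. A match of letters is a description of the sequence and not a bound site.

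**Figure D2:**
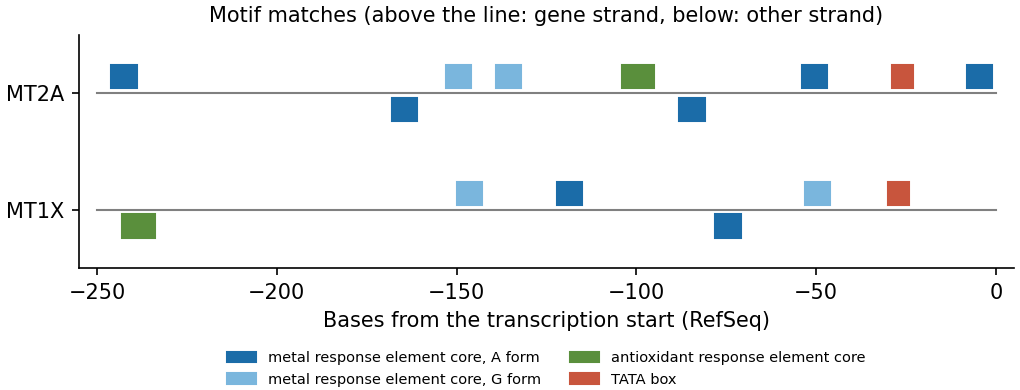
Motif matches in the 250 bases before the start of transcription of MT2A and MT1X. The x axis is the position in bases relative to the start (0), boxes above the line are matches on the strand of the gene and boxes below on the other strand; MT2A has 7 metal response element cores and MT1X has 4.

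The label of each library was first checked with the introduced gene. SPRR1A stood at a log2 TPM (transcript abundance scaled for length and library total) of 10.93 in stable SPRR1A against 0.75 in stable DsRed, and at 16.60 in transient SPRR1A against 3.56 in transient GFP. Deposited values have a floor of 0, meaning that the TPM was at most 1, and between 12964 and 13558 entities were above it. PK-1 cells are epithelial, and all 6 keratin and adhesion markers (KRT8, KRT18, KRT19, KRT7, EPCAM and CDH1) stood at log2 TPM between 7.03 and 12.94. Of 11 markers of leukocytes, fibroblasts, endothelium, acinar and islet cells, 8 were listed at 0 in every library, among them PTPRC, PECAM1, CPA1 and INS. The rest were CD68, COL1A1 and PRSS1.

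MT2A, the most widely expressed human metallothionein, was among the most abundant transcripts of PK-1. In the stable model its level was 1761 TPM with SPRR1A and 2122 TPM with DsRed, ranks 81 and 61 among 53826 entities. In the transient model it was 1953 TPM with SPRR1A and 2281 TPM with GFP, ranks 52 and 48. On the log2 scale these levels are 10.78, 11.05, 10.93 and 11.16, a range of 0.37 over the 4 libraries. The SPRR1A library was the lower in each model, and the levels of the stable and transient models overlapped.

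MT1X was the second metallothionein by level. It stood at 115 TPM with SPRR1A and 145 TPM with DsRed in the stable model (log2 TPM 6.84 and 7.18). In the transient model it stood at 217 TPM with SPRR1A and 226 TPM with GFP (7.76 and 7.82). Both transient libraries were above both stable ones, and the range of 0.97 was the widest of the 3 measured members.

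MT1F was present at a much lower level. The stable model had 11.3 TPM with SPRR1A and 12.4 TPM with DsRed (log2 TPM 3.50 and 3.63). The transient model had 14.2 TPM with SPRR1A and 18.6 TPM with GFP (3.83 and 4.22). The transient libraries again lay above the stable ones, with transient GFP highest.

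MT1E, MT1G and MT1M, which encode isoforms of the same protein family, were listed at 0 in all 4 libraries. The same held for the 15 other metallothionein genes and pseudogenes in the files, among them MT1A, MT1H, the brain form MT3 and the squamous form MT4. By comparison, 0 of 73 cytoplasmic ribosomal protein genes were listed at 0 and all 73 reached 5 TPM in every library. A TPM of 1 or less is all that the value of MT1E, MT1G or MT1M states, and no fold is given for them.

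**Figure D3:**
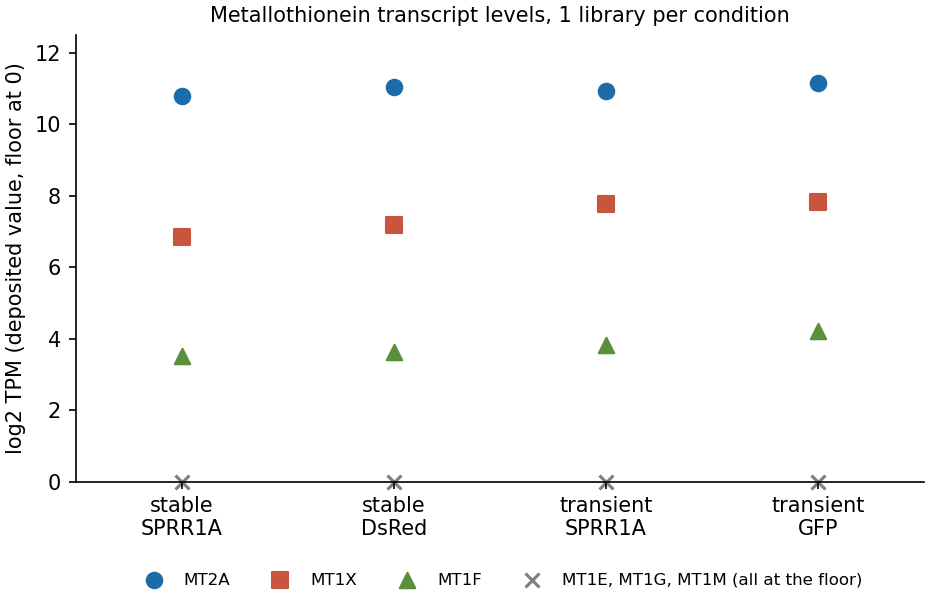
Metallothionein transcript levels. Each point is the deposited log2 TPM (y axis) of 1 gene in 1 library (x axis), without error bars since each condition is 1 library; MT2A lies between 10.78 and 11.16, MT1X between 6.84 and 7.82 and MT1F between 3.50 and 4.22, while MT1E, MT1G and MT1M sit at the floor.

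The order MT2A, MT1X, MT1F was the same in all 4 libraries, with wide gaps. Since TPM is scaled by transcript length, these levels can be set against each other. MT2A exceeded MT1X 15.3-fold with SPRR1A and 14.6-fold with DsRed in the stable model, but 9.00-fold with SPRR1A and 10.1-fold with GFP in the transient model. This ratio is taken within a library and so does not depend on how libraries are scaled to each other. The ratio of MT1X to MT1F was 10.1 and 11.7 in the stable libraries and 15.3 and 12.1 in the transient ones, with SPRR1A first. The models did not overlap in this ratio either, although stable DsRed and transient GFP were close. How often ratios of other gene pairs separate the models in this way was not tested. Both ratios also hold MT1X, the member with the least sequence of its own.

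A sum over the members depends less on how shared reads were divided between members of similar mRNA length, although reads shared with genes outside the 6 still bear on it. In the stable model the members summed to 1888 TPM with SPRR1A and 2280 TPM with DsRed, and in the transient model to 2184 TPM with SPRR1A and 2525 TPM with GFP. These sums were 0.189% to 0.252% of the total TPM. Setting the 3 members at the floor to their upper limit of 1 TPM would add 3 TPM to each sum. MT2A made up 89.4% to 93.3% of the sum, and MT1X 6.08% and 6.37% in the stable libraries and 9.94% and 8.93% in the transient ones. MT1F contributed less than either, 0.545% to 0.739%.

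The first comparison asks whether metallothionein levels differed with stable SPRR1A overexpression. MT2A, MT1X and MT1F were all lower in stable SPRR1A than in stable DsRed, by log2 differences of -0.27, -0.34 and -0.13, and the summed level by -0.27. None of the 6 members passed 2-fold, the threshold used in the study, which 0.947% of all entities above the floor in at least 1 of the 2 libraries passed. None passed 1.5-fold either, against 3.97% of entities. The 9835 well-expressed entities (5 TPM or more in each library of the pair) had a median difference of 0.06, and their central 95% ran from -0.27 to 0.41. MT1X lay just below that interval, with 1.15% of these entities lower. MT2A was near its edge, with 2.56% of entities lower, and MT1F was well inside it, with 10.5% lower. Since a single pair of libraries was compared, this places the members among other genes and does not measure how the same cells would vary on repetition.

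The second comparison asks the same in the transient model. The log2 differences between transient SPRR1A and transient GFP were -0.22 for MT2A, -0.06 for MT1X and -0.39 for MT1F, with -0.21 for the sum. No member passed 2-fold (0.889% of all entities did) or 1.5-fold (3.93%). Most transcripts were lower in this pair, with a median of -0.18 over 10153 entities and a central 95% from -0.43 to 0.07. SPRR1A itself made up 9.90% of the total TPM of the transient SPRR1A library and 0.00118% of that of transient GFP. Relative to that median, MT2A was at -0.04, MT1F at -0.21 and MT1X at 0.13. MT1F was the member furthest down, with 3.79% of entities below it, while 34.2% were below MT2A and 88.3% below MT1X.

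All 3 measured members thus had a lower deposited value with SPRR1A than with the control in both models, although for MT1X the transient difference turned to 0.13 after centring on the median and to 0.10 when SPRR1A was removed before scaling. A lower value in both models was also found for 32.3% of the 9658 entities that reached 5 TPM in each of the 4 libraries. The member with the largest difference was not the same in the 2 models, being MT1X in the stable and MT1F in the transient model.

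**Figure D4:**
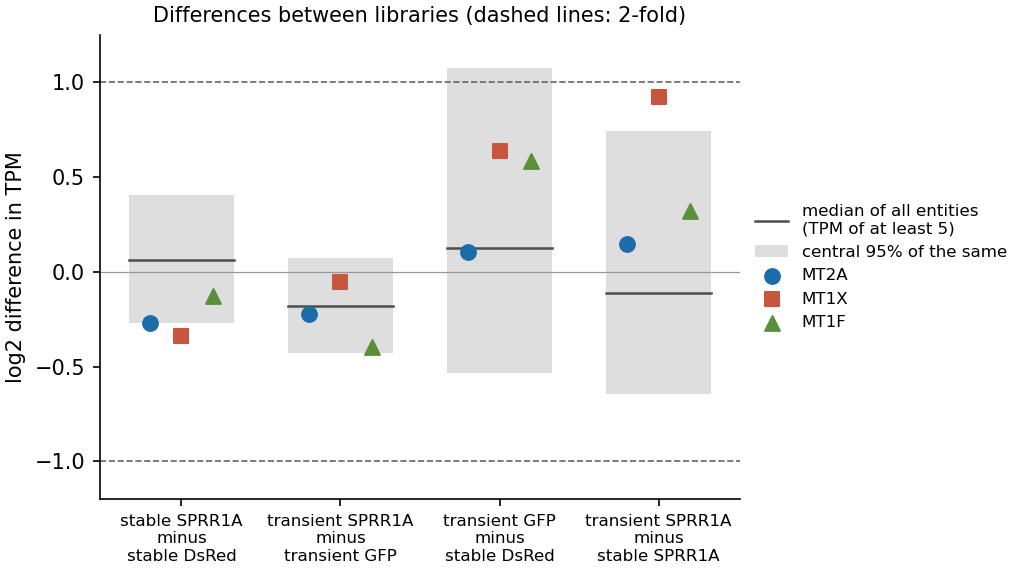
Differences between libraries for the 3 measured metallothioneins. Points give the log2 difference in TPM (y axis) for each of the 4 comparisons (x axis), the line and grey band give the median and central 95% of all well-expressed entities other than SPRR1A, and dashed lines mark 2-fold; no point passes 2-fold, and MT1X lies outside the band in the stable SPRR1A comparison (-0.34) and between the SPRR1A libraries (0.92).

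The transient and stable models were also set side by side. These differences cannot be told apart from those of the vector, the transfection, the culture and the library preparation, and each uses libraries that also enter the comparisons above. Between the controls, transient GFP minus stable DsRed, the log2 difference was 0.64 for MT1X, 0.59 for MT1F and 0.10 for MT2A. No member passed 2-fold, which 7.52% of entities did. At 1.5-fold 2 of the 6 members passed, MT1X and MT1F (the latter barely), against 22.9% of all entities. The median of all well-expressed entities was 0.12, with a central 95% from -0.54 to 1.08 that held all 3 members. After subtraction of that median, MT2A stood at -0.02.

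Between the SPRR1A libraries, transient minus stable, MT1X had the largest difference of any member, 0.92, with 0.32 for MT1F and 0.15 for MT2A. MT1X was outside the central 95% of entities, -0.65 to 0.74, and 98.6% of them had a lower difference. It remained short of 2-fold on the deposited scale, which 3.59% of entities passed. Centred on the median of -0.11 its difference was 1.03, past 2-fold. On that scale 471 of 13549 entities passed as higher and 90 as lower. At 1.5-fold MT1X alone of the 6 members passed, against 13.2% of entities. For MT1X and MT1F both transient libraries were above both stable ones, a pattern seen in 30.2% of the same 9658 entities. The markers of other cell types that were above the floor also differed between the models. CD68 was at 0.90 between controls and 0.82 between SPRR1A libraries, PRSS1 at 0.83 and 1.07, and COL1A1 at 0.66 and -0.13. PRSS1 was near the floor, at log2 TPM of 0.79 with SPRR1A and 0.64 with DsRed in the stable model, and 1.86 with SPRR1A and 1.47 with GFP in the transient model. The summed level of the 11 markers was 23.6 and 21.3 TPM in the stable libraries and 38.0 and 38.6 TPM in the transient ones, and their part in the metallothionein differences was not tested. The epithelial markers summed to 25893 and 26470 TPM in the stable libraries and to 18253 and 20034 TPM in the transient ones. Among them KRT7 was at -0.51 between controls and -0.61 between SPRR1A libraries, while CDH1 was at 0.71 and 0.25.

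The genes that sense and move the metals bound by metallothioneins were then examined. MTF1, the zinc sensor that activates metallothionein promoters, had log2 TPM of 2.95 with SPRR1A and 2.86 with DsRed in the stable model, and of 3.28 with SPRR1A and 3.56 with GFP in the transient model. Its differences between SPRR1A and control were 0.08 and -0.28. SLC30A1, a zinc exporter of the plasma membrane that is itself a known MTF1 target, stood at 3.69 and 3.92, and at 4.10 and 4.42, in the same order. Its differences between SPRR1A and control were -0.23 and -0.32, and those between models 0.50 for the controls and 0.41 for the SPRR1A libraries, short of 2-fold throughout. Both patterns were common. Of 9658 well-expressed entities, 32.3% were lower with SPRR1A in both models, and 30.2% had both transient libraries above both stable ones. A link between SLC30A1 and the metallothionein levels was not tested. The list called metal-sensing here held MTF1, MTF2, SP1 and USF1, of which only MTF1 is a metal sensor. None of these 4 genes and none of the 6 zinc exporters above the floor passed 2-fold in any of the 4 comparisons. Of all entities, 0.947% (stable) and 0.889% (transient) passed between SPRR1A and control. Between models the shares were 7.52% for the controls and 3.59% for the SPRR1A libraries.

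Of the 14 zinc importers, 11 were above the floor. SLC39A10, an importer of the plasma membrane, was the only one past 2-fold in any comparison on the deposited scale. Its log2 TPM was 4.20 and 3.75 with SPRR1A and DsRed in the stable model, and 3.14 and 3.53 with SPRR1A and GFP in the transient model, a difference of -1.06 between the SPRR1A libraries. That comparison had 3.59% of all entities past 2-fold on the deposited scale. SLC39A10 fell short of 2-fold after centring on the median (-0.95) and with SPRR1A removed before scaling (-0.91). SLC39A14, which imports zinc and iron, was at 5.17 and 4.81 in the stable and at 5.29 and 5.57 in the transient pair, with its largest difference, 0.75, between the controls.

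No copper or iron gene above the floor passed 2-fold between SPRR1A and control, where 0.947% (stable) and 0.889% (transient) of all entities did. In the control comparison 7.52% of all entities passed. Of 12 copper genes above the floor there, SLC31A2, a copper transporter of endosomes, was the only one past 2-fold, at 1.07. SLC31A2 was short of it after centring (0.95). Its levels were 3.43 and 3.40 in the stable and 4.17 and 4.47 in the transient libraries. Of 8 iron genes, HMOX1, the heme oxygenase that frees iron from heme, passed 2-fold in both comparisons between models, at 1.17 and 1.34. The shares of all entities past 2-fold were 7.52% and 3.59%. HMOX1 still passed after centring (1.05 and 1.46). The ferritin chains FTH1 and FTL, which store iron, were at 0.99 and 0.91 between controls and at 0.76 and 0.88 between SPRR1A libraries. With SPRR1A removed before scaling, the latter value of FTL was 1.03, past 2-fold. On that scale 512 of 13549 entities passed as higher and 94 as lower. Between SPRR1A and control HMOX1 had a stable difference of -0.41 and a transient one of -0.24.

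**Figure D5:**
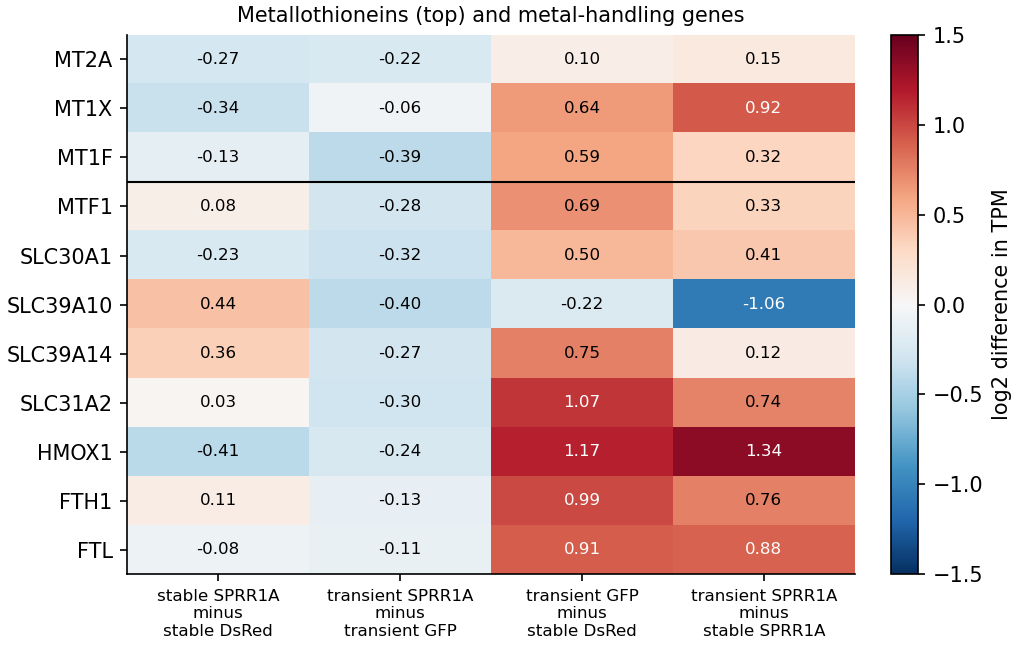
Log2 differences in TPM of the 3 measured metallothioneins (above the line) and of 8 metal-handling genes (rows) in the 4 comparisons (columns), with the value printed in each cell and red for a higher and blue for a lower first-named library. HMOX1 is the highest cell, 1.34 between the SPRR1A libraries, and SLC39A10 the lowest, -1.06 in the same comparison.

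Genes of other known metallothionein inducers were described in the same way. In the list of oxidative and heavy metal stress genes, which also holds HMOX1, 2 of 12 passed 2-fold between the controls and 2 of 12 between the SPRR1A libraries, higher in the transient library. Of all entities, 7.52% and 3.59% passed in these comparisons. Most of those were higher in the transient library too, 944 against 91 lower between controls and 354 against 132 lower between SPRR1A libraries (471 against 90 after centring). The other gene was the inducible heat shock gene HSPA6, at 1.40 and 1.62. Its levels were low, 0.81 and 1.21 in the stable against 2.42 and 2.61 in the transient libraries. GCLC, which makes the first step of glutathione synthesis, was at 0.95 and 0.74. The median of the list was 0.51 between controls and 0.27 between SPRR1A libraries, where all entities above the floor had medians of 0.18 and -0.08.

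Among 9 glucocorticoid-responsive genes above the floor, DUSP1, a phosphatase of MAP kinases, had the largest difference of any list gene. It stood at 4.14 and 3.94 in the stable and at 5.67 and 5.99 in the transient libraries, which gave 2.04 between controls and 1.53 between SPRR1A libraries. ERRFI1, a feedback inhibitor of the EGF receptor, passed 2-fold between controls at 1.01 but not after centring (0.88). The list did not move as one. TSC22D3 was at 0.21 between controls and -0.09 between SPRR1A libraries, CEBPD at 0.09 and -0.23, and FKBP5, near or at the floor, at -0.53 and -0.63. In the transient library 8 of the 9 genes were higher between controls, and 6 of 9 between SPRR1A libraries. Of 9 genes of interleukin 6 and STAT3 signaling, the receptor chains IL6R (1.04) and IL6ST (1.09) and the kinase PIM1 (1.29) passed 2-fold between the controls, which 7.52% of all entities did. After centring PIM1 remained past it at 1.17, while IL6R (0.92) and IL6ST (0.97) were short of it. Between the SPRR1A libraries none of the 7 above the floor passed on the deposited scale, where IL6R was at 0.98. IL6R passed after centring (1.09), where 471 of 13549 entities passed as higher and 90 as lower. SOCS3 went the other way in both comparisons, at -0.25 and -0.37, while the other genes of this list above the floor were higher in the transient library (8 of 9 and 6 of 7).

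In the SPRR1A comparisons the count was 0 past 2-fold in every one of these lists in both models. Few entities of any kind passed there, 0.947% for stable SPRR1A against DsRed and 0.889% for transient SPRR1A against GFP. Among entities that reached 5 TPM in each library of the pair, the shares were 0.0915% and 0.0591%. With shares this low, a count of 0 in such short lists does not set them apart from other genes. The medians of the metal-sensing, zinc exporter and zinc importer lists were 0.10, 0.13 and 0.06 in the stable model, against 0.07 for all entities above the floor. In the transient model they were -0.25, -0.31 and -0.20, against -0.19 for all entities. The median of the 3 measured metallothioneins was -0.27 in the stable model, and -0.22 in transient cells.

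Finally, the genes whose pattern over the 4 libraries was most like the mean of the 3 measured metallothioneins were sought among 9655 well-expressed entities, by the distance between log2 profiles after subtraction of each gene's own mean. The nearest was UBE2L6, a conjugating enzyme of the interferon-induced modifier ISG15, at a distance of 0.023. It was followed by the elongation factor EEF1A2 (0.037), the read-through transcript CHKB-CPT1B (0.044), the aldehyde dehydrogenase ALDH3A1 (0.057) and the small GTPase RAB24 (0.060). UBE2L6 had log2 TPM of 5.47 with SPRR1A and 5.70 with DsRed in the stable model, and of 5.95 with SPRR1A and 6.17 with GFP in the transient model. The metallothioneins themselves were further from their own mean than these genes, at 0.33 for MT2A, 0.35 for MT1X and 0.15 for MT1F, while the median entity was at 0.54. The 4 points of such a profile are single libraries, so likeness over them is a description.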

How the data were processed

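Poly(A) RNA was sequenced as paired-end reads (TruSeq stranded libraries, NovaSeq), with 1 library per condition. Using Strand NGS at default settings and the hg38 transcriptome, the authors aligned the reads and deposited the log2 of the TPM per entity, with a floor at 0. Software version, annotation, read length and treatment of reads matching several genes are not given in the sources used here, and the depth in reads is unknown. All 4 value columns were matched to their samples, with 0 left over.

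From these values, log2 differences were computed for all 53826 entities with Python 3.11.15, numpy 2.4.6 and pandas 2.3.3, and figures were drawn with matplotlib 3.10.9. Entities were counted past 2-fold among those above the floor in at least 1 of the 2 libraries. With 1 library per condition no test was run. The calling step was also run on simulated data whose changes were set past the threshold, which checks the code only and not the spread of these data. Coding sequences were aligned with Biopython 1.88 (GENCODE 44). For each gene, the transcript with 3 coding exons was used. Promoters came from RefSeq (GRCh38 patch 14).

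The members and the gene lists were chosen with earlier results of these data known. List genes were named if past 2-fold, or among the 3 largest differences of a list and comparison with a TPM of at least 5, and the 5 nearest profiles were named. One symbol of the copper list, MT-CO1, was not matched. Alternatives were pseudocounts of 1 and 0.1, SPRR1A left out of the TPM total, centring on the median, a minimum TPM of 5 and a 1.5-fold threshold.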

Additional observations from a re-analysis of the deposited data

Results flagged for a closer look

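The log2 difference between SPRR1A and control had opposite signs in the stable and the transient model for 5 of the 11 metallothionein and metal-handling genes described in both models, none of which passed 2-fold in either. Opposite signs were common. They were found in 25 of 37 well-expressed genes of the metal-sensing, zinc, copper and iron lists (67.6%) and in 65.3% of all 9658 well-expressed entities (64.9% and 59% after centring), and the medians of all entities themselves differ in sign (0.06 and -0.18). Whether the models differ was not tested, as they have single libraries. The stable minus the transient difference was 0.84 for SLC39A10 (0.44 and -0.40), 0.64 for SLC39A14 (0.36 and -0.27), 0.36 for MTF1 (0.08 and -0.28), 0.33 for SLC31A2 (0.03 and -0.30) and 0.23 for FTH1 (0.11 and -0.13). After centring each comparison on the median of all well-expressed entities, SLC39A10 (0.38 and -0.22), SLC39A14 (0.30 and -0.09) and MTF1 (0.02 and -0.10) kept opposite signs. SLC31A2 (-0.03 and -0.12) and FTH1 (0.05 and 0.06) did not.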

How the results depend on the processing

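Of 80 log2 values recomputed for the members, their median and their sum, 70 moved by less than 1 SD of the differences of all well-expressed entities, and 3 changed sign. That total is no measure of stability. The pseudocounts (16 values each) and the minimum TPM (8 values) could hardly move members above 5 TPM. Removing SPRR1A and centring each moved 5 of 20 values by at least that SD, all between transient SPRR1A and transient GFP, where every value moved. The SD was 0.13 in that comparison but 0.35 between the SPRR1A libraries. Removing SPRR1A took MT2A from -0.22 to -0.07 in the former and from 0.15 to 0.30 in the latter. Only the former counted as moved, so the count does not show that the SPRR1A libraries depend less on scaling. Between transient SPRR1A and transient GFP, the median of the members was -0.074 with SPRR1A removed before scaling and -0.041 after centring, and the log2 ratio of the summed TPM was -0.059 and -0.027. In the same comparison MT1X changed sign under both settings, and between the controls MT2A changed sign after centring (-0.02). Between the SPRR1A libraries, 1 member (MT1X) passed 2-fold with SPRR1A left out or after centring, and 1 passed 1.5-fold (13.2% of all entities did). Between the controls 2 members passed 1.5-fold (22.9% of all entities did). For list genes, both scalings were added after seeing the data. After centring, the count past 2-fold between controls was 0 of 12 for copper, 1 of 9 for glucocorticoid and 1 of 9 for interleukin 6 genes. On that scale 684 of 13761 entities passed as higher and 133 as lower. Between SPRR1A libraries the list count was 0 for zinc importers and 1 for interleukin 6 genes under both scalings, and 2 for iron genes with SPRR1A removed. Of 13549 entities, 512 passed as higher and 94 as lower with SPRR1A removed, and 471 and 90 after centring. Among entities that reached 5 TPM in each library of a pair, the share past 2-fold was 0.0915%, 0.0591%, 3.46% and 1.39% in the 4 comparisons. No paired analysis was possible because there were no replicates. Without replicates or read counts, neither biological spread nor counting error could be measured, and values of 3 members at the floor state only a TPM of 1 or less.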
